A study of Homo sapiens with 16 samples.

Results

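The long arm of chromosome 17 (17q) was described through the intervals at which TOP2B was called in PC9 cells. Members were the intervals of 4 deposited TOP2B peak lists on chromosome 17 with a midpoint at or above base 22200000 of the GRCh37 assembly. There were 919 of 44922 intervals over the lists, of which 548 lay from 70 Mb to the end of the arm, called distal 17q here, and 371 lay below 70 Mb, called proximal 17q. PC9 is an established human lung adenocarcinoma line driven by a mutant EGFR receptor, and osimertinib is an inhibitor of that kinase. The 4 groups were wild type and METTL7A knockout cells, each untreated or grown for 6 to 8 weeks under osimertinib with the dose raised from 100 nM. Every group was profiled by CUT&RUN with a TOP2B antibody in 2 replicate libraries, from which the authors made 1 list. The labels do not say whether the knockout line was 1 clone or whether replicates were separate cultures, and the METTL7A locus was not examined, so the genotype was not checked.

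TOP2B is the beta isoform of DNA topoisomerase II, an enzyme that cuts both strands of one duplex, passes another through the gap and reseals it. It works in dividing and non-dividing cells and is known for relieving torsion at promoters, enhancers and the anchors of chromatin loops. Its paralogue TOP2A, which serves mainly in chromosome segregation, is encoded on 17q, as are the tumour suppressors BRCA1 and NF1 and the receptor tyrosine kinase ERBB2 (HER2). ERBB2 does not bind a ligand of its own and signals as a partner of EGFR and ERBB3, and gain of extra ERBB2 copies is one known route around EGFR inhibition in lung cancer. METTL7A belongs to a family of methyltransferase-like proteins.

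In whole, the untreated lists held 15281 intervals (wild type) and 12493 (knockout), and the treated lists 9655 and 7493. Counts on 17q are therefore given with the share of the list they make up. The lists may also not be equally selective. The lowest maximum coverage that entered a list was 5, 2, 5 and 4 coverage steps in that order. A step is the smallest unit of coverage in that list, and it was 0.0392, 0.0723, 0.0535 and 0.0379. How coverage was scaled is not stated, so how far the lists differ in how weak a peak they admit is not known. Depth is unknown from the lists. Brackets hold exact 95% intervals, which cover counting error only and treat neighbouring intervals as independent. Since each condition has 1 list, the spread between replicates is unknown and no test between conditions was made. The H2A libraries of the study were not analysed here.

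Treated wild type had far more TOP2B intervals on 17q than any other list. The arm held 203 untreated wild-type, 58 untreated knockout, 623 treated wild-type and 35 treated knockout intervals. These made up 1.33% (1.15 to 1.52), 0.464% (0.353 to 0.6), 6.45% (5.97 to 6.96) and 0.467% (0.326 to 0.649) of the lists. The treated wild-type list was shorter than both untreated lists and still held the most intervals of the arm. The shares of the knockout lists were nearly the same without and with drug, at a ratio of 1.01 (0.642 to 1.56), an interval that leaves room for a lower or a higher share under drug.

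The excess of treated wild type lay mainly in distal 17q. There the lists held 82, 16, 436 and 14 intervals in the order untreated wild type, untreated knockout, treated wild type and treated knockout. The shares were 0.537% (0.427 to 0.666), 0.128% (0.0732 to 0.208), 4.52% (4.11 to 4.95) and 0.187% (0.102 to 0.313). Distal 17q made up 70% of the arm's intervals in treated wild type (66.2 to 73.6) but 40.4% in untreated wild type (33.6 to 47.5), 27.6% in untreated knockout (16.7 to 40.9) and 40% in treated knockout (23.9 to 57.9). The start of the distal segment at 70 Mb was set with earlier results of these data known, so that its contrast with the rest of the arm is a description.

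**Figure D1:**
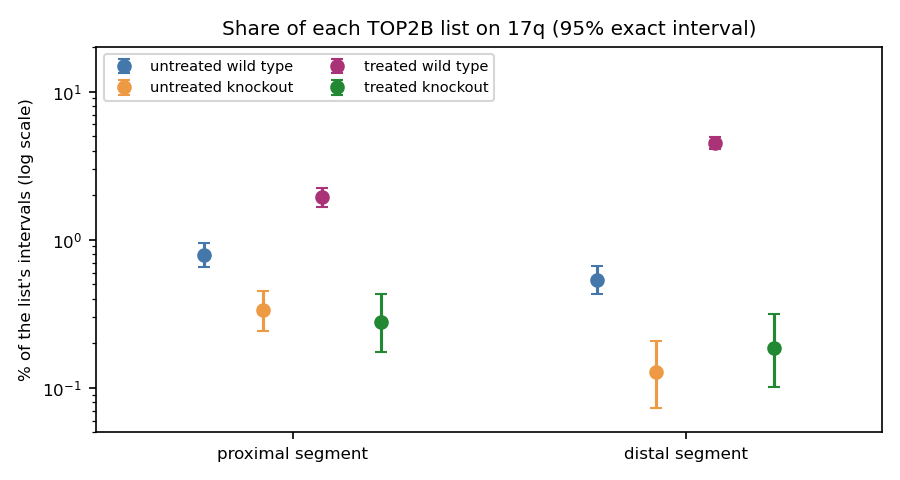
Share of each list's TOP2B intervals (percent, log axis) in proximal and distal 17q for the 4 lists; points are shares and bars the exact 95% interval. Treated wild type is highest in both segments, at 1.94% and 4.52%, and the knockout lists lie at or under 0.336%.

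In proximal 17q treated wild type was again highest and untreated wild type next, with smaller distances between the lists. The lists held 121, 42, 187 and 21 intervals there, which were 0.792% (0.657 to 0.945), 0.336% (0.242 to 0.454), 1.94% (1.67 to 2.23) and 0.28% (0.174 to 0.428) of the lists. Per megabase of its 47.8 Mb this gave 2.53, 0.879, 3.91 and 0.439 intervals in the same order. Distal 17q, with 11.2 Mb up to the last interval of any list, held 7.35, 1.43, 39.1 and 1.26 intervals per megabase. Distal 17q was the denser segment in all 4 lists.

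Read along the arm in windows of 1 Mb, treated wild type filled every distal window. Its 12 distal windows held between 7 and 99 intervals with a median of 34. Untreated wild type held 0 to 27 with a median of 4.5, and each knockout list held 0 to 4 with a median of 1. The fullest window was 79 to 80 Mb, with 27 untreated wild-type, 1 untreated knockout, 99 treated wild-type and 2 treated knockout intervals. The next in treated wild type was 77 to 78 Mb, with 8, 2, 55 and 1 intervals in that order. Treated wild type had the highest share of the 4 lists in 12 of 12 distal windows and in 30 of 48 proximal windows. The 48 include 10 windows that were empty in every list, where no list could be highest.

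**Figure D2:**
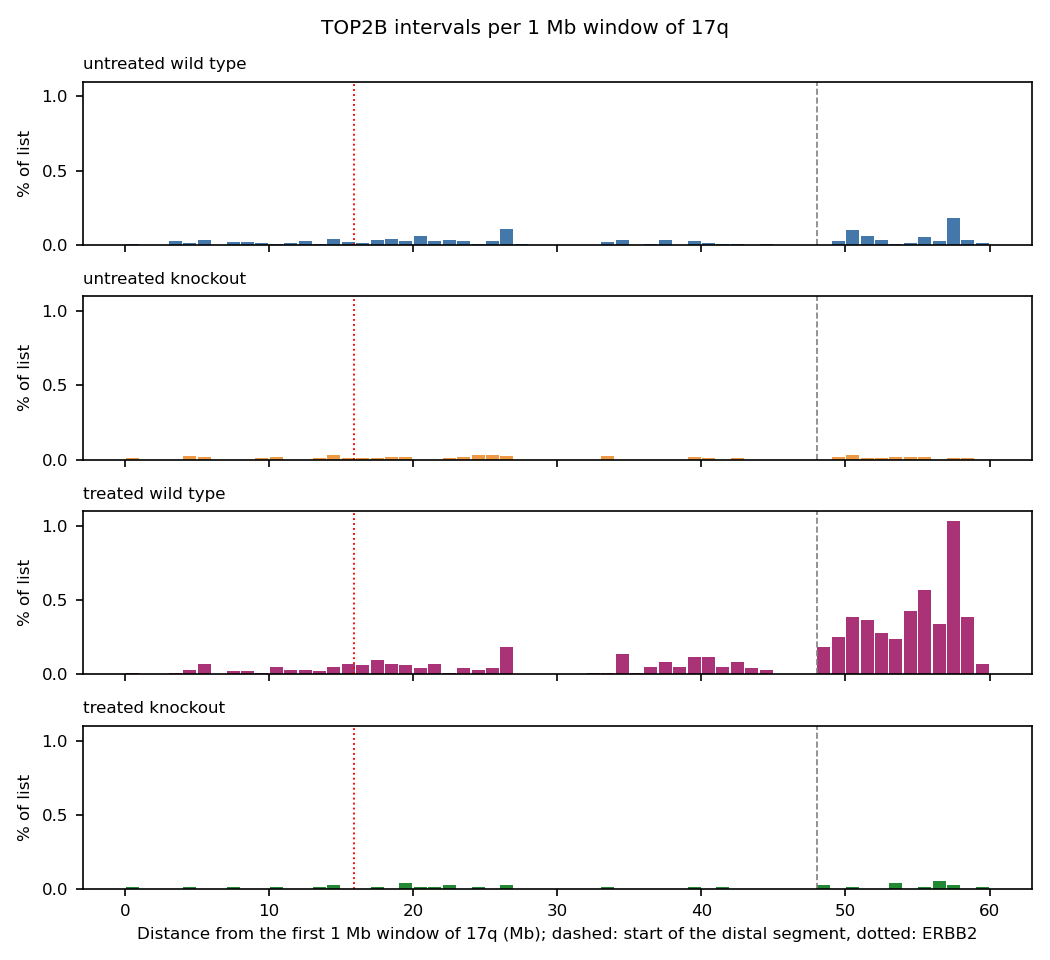
TOP2B intervals per 1 Mb window of 17q as a percentage of each list, against the distance in Mb from the first window of the arm, with the start of the distal segment (dashed) and ERBB2 (dotted). Treated wild type fills all 12 distal windows and peaks at 99 intervals in 1 window, whereas the knockout lists hold at most 4 in any window.

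A stretch with no interval in any list preceded distal 17q. The windows from 67 to 70 Mb were empty in all 4 lists, as were those from 50 to 54 Mb, from 23 to 25 Mb and from 28 to 29 Mb, 10 of 60 windows in all. In treated wild type the last interval below the empty stretch was at chr17:66535351-66537400, and the intervals resumed 3.48 Mb further on at chr17:70015851-70017450. Untreated wild type resumed later, at chr17:71363051-71363750, after 4.98 Mb without an interval, and its window from 70 to 71 Mb was empty where treated wild type held 18 intervals. An empty window is one in which no peak entered the list, not a measurement of zero signal.

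Distal intervals of treated wild type were crowded, and many were pieces of one broad called peak. The median gap to the next interval was 10.8 kb in treated wild type, 31.9 kb in untreated wild type, 449 kb in untreated knockout and 467 kb in treated knockout. Of 436 distal intervals of treated wild type, 267 came from called peaks that gave more than 1 interval (61.2%), against 49.8% in the rest of that list. In the same list it was 59.6% on 17p, 57% at 30 to 50 Mb of chromosome 19 and 63% in the first 45 Mb of chromosome 5. In untreated wild type the distal share of such pieces was 25.6%, against 50.4% in the rest of its list. The 2 knockout lists had no such piece on 17q, against 3.35% in the rest of the untreated and 33.8% in the rest of the treated knockout list. The called peak with most pieces gave 9 intervals in treated wild type, between 79943001 and 79973000, a span of 30 kb. Counting each called peak as 1 gave 71, 16, 267 and 14 distal peaks in the order of the lists.

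Peak heights within a list also differed between the segments. The maximum of a called peak is given relative to the median maximum of its own list, since levels are not compared across lists. In treated wild type, 69.7% of the distal intervals (65.2 to 74) reached the list median, against 35.8% of the proximal ones (29 to 43.2) and 58.6% of the rest of the list. In untreated wild type, 18.3% of the distal (10.6 to 28.4) and 8.26% of the proximal intervals (4.03 to 14.7) did so, against 52.4% of the rest. The knockout shares were 43.8% distal and 57.1% proximal without drug, against 74.3% of the rest, and 35.7% and 38.1% with drug, against 64.2%. Untreated wild type thus had most of its 17q intervals among the weaker peaks of its list. Of the 17q segments, only distal 17q of treated wild type had a larger share at or above the list median than the rest of its list. In that list the share was 86.7% in the first 45 Mb of chromosome 5, 60.2% at 30 to 50 Mb of chromosome 19 and 56.6% on 17p. The maximum belongs to the called peak and can lie outside the interval.

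**Figure D3:**
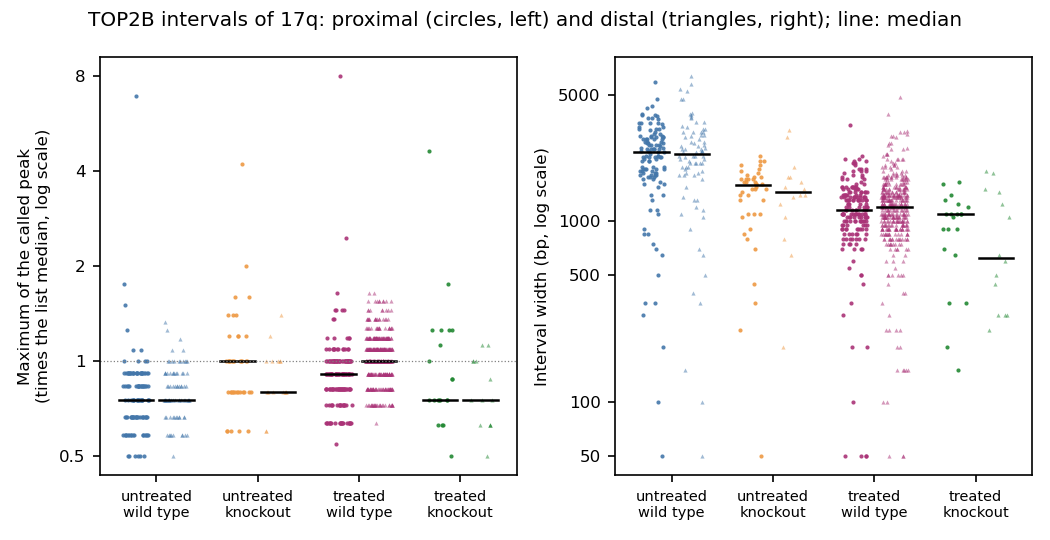
Maximum of the called peak relative to the list median (left) and interval width in bp (right), both on log axes, for every 17q interval by list, with proximal intervals as circles, distal ones as triangles and medians as lines. Most intervals lie between 0.5 and 2 times their list median, and 1 proximal interval in each list reaches 4.2 to 8 times.

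Widths on 17q followed the list more than the segment. The median width was 2400 bp proximal and 2350 bp distal in untreated wild type, 1575 and 1450 bp in untreated knockout, 1150 and 1200 bp in treated wild type, and 1100 and 625 bp in treated knockout. The rest of the lists had medians of 2600, 1650, 1200 and 1150 bp. Distal 17q of treated knockout stood lowest, on 14 intervals.

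Against the untreated list, treated wild type held 8.42 times the share in distal 17q (6.63 to 10.8) and 2.45 times in proximal 17q (1.94 to 3.1). Both intervals lie above equality. Both ratios depended on which peaks were counted. Among intervals whose peaks reached the median of their list they were 28.4 distal and 9.38 proximal. With the untreated list cut to its highest peaks they were 16.2 and 5.41. The cut aimed at the length of the shorter list but kept all peaks tied at its limit, so the cut list could stay longer. Of 464 windows of the genome with at least 10 intervals in either list, 69% differed at least 2-fold in share in either direction, with 33% at least 2-fold higher in treated wild type and 36% at least 2-fold lower. On 17q 14 of 15 windows were at least 2-fold higher in treated wild type and none was 2-fold lower. All 15 reached 10 intervals in treated wild type, but only those starting at 48, 72 and 79 Mb did so in untreated wild type. Their direction was thus partly set by the selection of windows. Ordered by the ratio with 0.5 added to each count, the first was 70 to 71 Mb at 58.6, with 0 and 18 intervals, for which the lower bound of the unadjusted ratio is 6.96. Next in that order were 76 to 77 Mb at 26.3, with 2 and 41 intervals (32.4 unadjusted, 8.43 to 277), and 75 to 76 Mb at 24.8, with 1 and 23 (36.4 unadjusted, 5.91 to 1499.5). The intervals of these windows overlap widely, so their order is not resolved.

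In the knockout the same contrast showed little on 17q. The share under drug was 1.46 times the untreated share in distal 17q (0.659 to 3.19, on 14 and 16 intervals) and 0.834 times in proximal 17q (0.469 to 1.44, on 21 and 42). Both intervals include equality and are wide, so a difference of the sizes they span was not detectable with these counts. No window of 17q reached 10 intervals in either knockout list, whereas 276 windows of the genome did, of which 18.1% differed at least 2-fold, 2.9% higher and 15.2% lower under drug. With single lists, a difference in drug response between the genotypes was not open to a test.

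Without drug, the knockout held a smaller share of its intervals on 17q than wild type. The ratio was 0.239 in distal 17q (0.13 to 0.411) and 0.425 in proximal 17q (0.291 to 0.608). The proximal ratio turned to 2.05 (0.945 to 4.8) when only intervals at or above the list median were counted, on 24 knockout and 10 wild-type intervals, an interval that includes equality. Outside 17q this cut kept 74.3% of the knockout list and 52.4% of the wild-type list, so it was not a matched cut. With the wild-type list cut toward the knockout length from its highest peaks, ties kept, the proximal ratio was 0.605 (0.405 to 0.894). All 3 windows of 17q with at least 10 intervals had a knockout share at least 2-fold lower, against 18.3% of 360 windows of the genome; 3.61% of those were higher and 21.9% differed in either direction. They were 79 to 80 Mb with 1 knockout and 27 wild-type intervals (0.0453, 0.00111 to 0.275), 48 to 49 Mb with 3 and 16 (0.229, 0.0428 to 0.801), and 72 to 73 Mb with 4 and 15 (0.326, 0.0788 to 1.02). All 3 reached 10 intervals through wild type alone, since no 17q window of untreated knockout held more than 4. Their direction was thus largely set by this selection, and the count is no further evidence.

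Under drug the knockout share was lower again relative to wild type, though the step from the untreated ratio was not tested. The knockout share was 0.0414 times that of wild type in distal 17q (0.0224 to 0.0702) and 0.145 times in proximal 17q (0.0875 to 0.228). All 15 windows examined on 17q had a knockout share at least 2-fold lower, against 51% of 353 windows of the genome. None was higher, against 28% (79% in either direction). All 15 entered the comparison through wild type alone, since no 17q window of treated knockout held more than 4 intervals. Their direction was thus largely set by this selection, and the count is no further evidence. The windows with the lowest ratio were 76 to 77 Mb with 0 knockout and 41 wild-type intervals (ratio of at most 0.121), 80 to 81 Mb with 0 and 37 (at most 0.135), and 73 to 74 Mb with 0 and 35 (at most 0.143). These comparisons share lists with those above, so they are not independent of each other.

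Other segments with a larger share in treated wild type are given beside 17q for scale; the differences between them were not tested. Treated against untreated wild type, the ratio was 2.71 on 17p (2.31 to 3.18), 9.75 at 30 to 50 Mb of chromosome 19 (7.69 to 12.5) and 9.12 in the first 45 Mb of chromosome 5 (7.91 to 10.5). Distal 17q lay with the last 2 and proximal 17q with 17p. In untreated knockout against untreated wild type, distal 17q at 0.239 was near 17p at 0.208 (0.147 to 0.288). The chromosome 19 segment stood at 0.413 (0.256 to 0.646), an interval that overlaps that of distal 17q. The first 45 Mb of chromosome 5 stood at 0.839 (0.679 to 1.03), an interval that does not reach that of distal 17q. Under drug the knockout ratio was 0.0803 on 17p (0.0523 to 0.119). It was 0.0366 in the chromosome 19 segment (0.0199 to 0.062) and 0.0722 in that of chromosome 5 (0.0563 to 0.0915).

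ERBB2 itself carried no TOP2B interval in any list. Its position on chromosome 17, 37.844 to 37.887 Mb, spans 42.5 kb. In untreated wild type an interval stood on each side of the gene, at chr17:37829951-37834700, 9.47 kb below it, and at chr17:37897101-37899250, 10.4 kb above it. Both had a maximum of 0.917 times the list median. Neither overlapped an interval of another list. In treated wild type the nearest were chr17:37789301-37789350, 54.8 kb below and only 50 bp wide, and chr17:38150201-38151850, 264 kb above.

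Around the gene the knockout lists held few intervals, as they did over proximal 17q. In untreated knockout the nearest intervals were 510.3 kb below and 193 kb above ERBB2. In treated knockout they were 1144.9 kb below and 1924.8 kb above, so that 3112.2 kb around the gene held no interval. Within 500 kb of either end of the gene there were 3 untreated wild-type, 1 untreated knockout, 8 treated wild-type and 0 treated knockout intervals. Per megabase this was 2.88, 0.959, 7.67 and 0, beside 2.53, 0.879, 3.91 and 0.439 over proximal 17q. On counts this low nothing particular to the gene was read from them. Of the 8, 4 were pieces with the same maximum, 1.45 times the list median, between 38250251 and 38263500. The window from 37 to 38 Mb held 3, 1, 7 and 0 intervals and so was not among those with at least 10. In RefSeq gene order ERBB2 lies between PGAP3, an enzyme that remodels the lipid anchor of GPI-linked proteins, and MIEN1, followed by GRB7, an adaptor protein that binds activated ERBB2. The gene order comes from a table of another build, so the flanking intervals were not assigned to these genes.

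**Figure D4:**
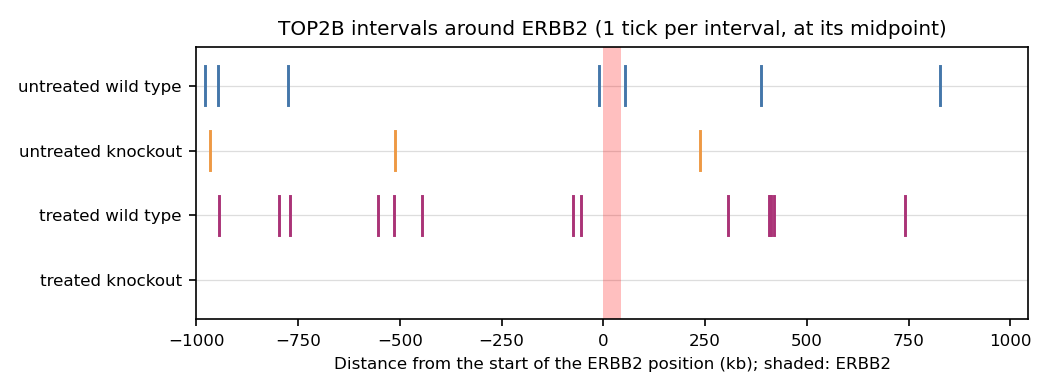
TOP2B intervals within 1000 kb of ERBB2 in the 4 lists, against the distance in kb from the start of the gene; each tick is 1 interval at its midpoint and the shaded band is ERBB2. No tick falls in the band, untreated wild type has 1 on each side close to it, and treated knockout has none in view.

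The highest 17q peak lay outside the distal segment and was common to all 4 lists. One position, chr17:41399601-41401600, held an interval in all 4 lists and was the highest of the arm in each. Its maximum was 6.92 and 4.2 times the list median in untreated wild type and knockout, and 8 and 4.62 times in the treated lists. By the maximum it ranked 16, 19, 26 and 23 in the whole lists in that order. It was the only such position among 834 separate positions of 17q, and distal 17q had none. Over the whole lists, 4.15% of untreated wild-type, 4.49% of untreated knockout, 5.75% of treated wild-type and 7.11% of treated knockout intervals overlapped an interval of every other list. On 17q it was 1 of 203, 1 of 58, 1 of 623 and 1 of 35.

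Another position with intervals in several lists stood at the lower limit used for the arm. It lies on the short-arm side of the unsequenced centromere gap of the assembly and belongs to the members by the rule alone. It was at chr17:22250001-22251800 in untreated wild type (1.5 times the list median), chr17:22250951-22252050 in untreated knockout (2 times) and chr17:22250801-22251800 in treated wild type (2.45 times). In treated knockout the interval lay just beyond these, at chr17:22252201-22253400 (1.75 times). The gap also covers the windows from 23 to 25 Mb that were empty in all lists, and the values for the arm from 26 Mb leave these intervals out. They were the first members above the lower limit of the arm in each list, with midpoints 50.9 to 52.8 kb inside it. The nearest intervals outside it ended at 21796550 in untreated wild type (0.833 times the list median) and at 21328100, 21328300 and 21326900 in the others (1.6, 2 and 1.62 times). Close to the position shared by all lists, chr17:41381701-41382700 in treated wild type (1.64 times) overlapped intervals of both knockout lists but none of untreated wild type.

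The other high intervals of the arm were each found in 1 or 2 lists. In untreated wild type, chr17:36384901-36386800 (1.75 times the list median) had no overlap elsewhere. In untreated knockout, chr17:45945251-45946350 (1.6 times) overlapped untreated wild type. Among the distal intervals, the leading ones stood between 1.12 and 1.64 times their list median. In treated wild type, chr17:77171101-77172350 and chr17:77172951-77174050 (both 1.64 times) were pieces of one called peak whose maximum lay outside them, and no other list overlapped them. In untreated wild type, chr17:79303801-79306750 (1.33 times) overlapped treated wild type, as did chr17:72541551-72543050 of untreated knockout (1.4 times). In treated knockout, chr17:78415251-78416500 (1.12 times) had no overlap.

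Of the 834 positions of 17q, 765 were held by 1 list, which is 91.7%, against 72.9% of 29197 positions over the genome. Of 336 proximal positions, 163 were in treated wild type alone, 100 in untreated wild type alone, 29 in untreated knockout alone and 16 in treated knockout alone. Of 498 distal positions, 387 were in treated wild type alone and 48 in untreated wild type alone, and 33 were in both. Every other combination of 2 or more lists had at most 12 positions in a segment.

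Distal intervals of untreated wild type often had a treated counterpart. A counterpart is an interval of the second list that covers at least 1 bp of the first. The share was 34 of 82 distal intervals, 41.5% (30.7 to 52.9), and 14 of 121 proximal ones, 11.6% (6.47 to 18.7), against 14.8% of the whole list. In the window from 79 to 80 Mb it was 16 of 27, and from 80 to 81 Mb 5 of 5. Treated wild type covered 4.92% of distal and 0.471% of proximal 17q, and an overlap of 1 bp is easier to meet where the second list is dense. How far this accounts for the difference was not tested. The counterpart shares also depended on how much overlap was asked for. With an overlap of 50% of both intervals, distal 17q had 6 of 82 (7.32%, 2.73 to 15.2) and proximal 17q 5 of 121 (4.13%, 1.36 to 9.38), against 2.93% of the whole list. In the other direction, 40 of 436 treated distal intervals had an untreated counterpart, 9.17% (6.64 to 12.3), against 28.7% of the whole list, and 6 of 436 at the 50% overlap (1.38%, 0.507 to 2.97), against 4.63%. The crowded windows 75 to 76 and 76 to 77 Mb had 0 of 23 and 0 of 41. At either overlap, most distal intervals of treated wild type had no counterpart in the untreated list.

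Between the genotypes, distal 17q had no shared interval without drug. Of 82 wild-type and 16 knockout distal intervals, 0 had a counterpart, which allows shares of up to 4.4% and 20.6%. In proximal 17q, 9 of 42 knockout intervals had one, 21.4% (10.3 to 36.8). The whole-list shares were 35.1% of wild-type and 53.7% of knockout intervals. At the 50% overlap they were 12.5% and 15.3%, and on 17q 3 of 203 wild-type (1.48%) and 3 of 58 knockout intervals (5.17%) had one. Under drug, 5 of 436 distal intervals of wild type (1.15%, 0.373 to 2.66) and 4 of 14 of the knockout (28.6%, 8.39 to 58.1) had a counterpart, against 10.5% and 13.4% of the whole lists. Between the knockout lists, 2 of 58 untreated and 2 of 35 treated 17q intervals had one, against 23.4% and 43.7%.

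The counterpart shares were also taken in sparse windows, where the first list of a pair holds few intervals. The second list was not limited and could be crowded there. The window from 80 to 81 Mb held 5 untreated and 37 treated wild-type intervals, and all 5 untreated ones had a treated counterpart. In the rest of the genome, intervals of untreated knockout in 1 Mb windows with at most 5 intervals of that list had a wild-type counterpart in 15.6% of cases (13.6 to 17.8), and the 58 intervals on 17q, all in such windows, in 15.5% (7.35 to 27.4). Of untreated wild-type intervals in sparse windows, 6.54% on 17q (2.67 to 13) and 11.4% in the rest (9.68 to 13.4) had an untreated knockout counterpart. Under drug, 25.7% of knockout intervals on 17q (12.5 to 43.3) had a wild-type counterpart, against 10.7% in the rest (8.9 to 12.8), and 2.9% of wild-type intervals on 17q (0.353 to 10.1) had a knockout counterpart, against 6.18% (4.81 to 7.82). Between untreated and treated knockout the same shares were 4.97% in the rest (3.8 to 6.37) and 3.45% on 17q (0.42 to 11.9). For treated against untreated knockout they were 13.3% (11.3 to 15.5) and 5.71% (0.7 to 19.2). In such sparse windows, 18.7% of untreated wild-type intervals on 17q (11.8 to 27.4) had a treated wild-type counterpart, against 10.5% in the rest (8.83 to 12.4). In the other direction it was 10.1% of treated wild-type intervals on 17q (4.18 to 19.8) and 15.8% in the rest (13.6 to 18.1). In each pair of lists the interval for 17q overlapped that for the rest, and no difference was tested. This limit on crowding was chosen after the data had been seen.

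**Figure D5:**
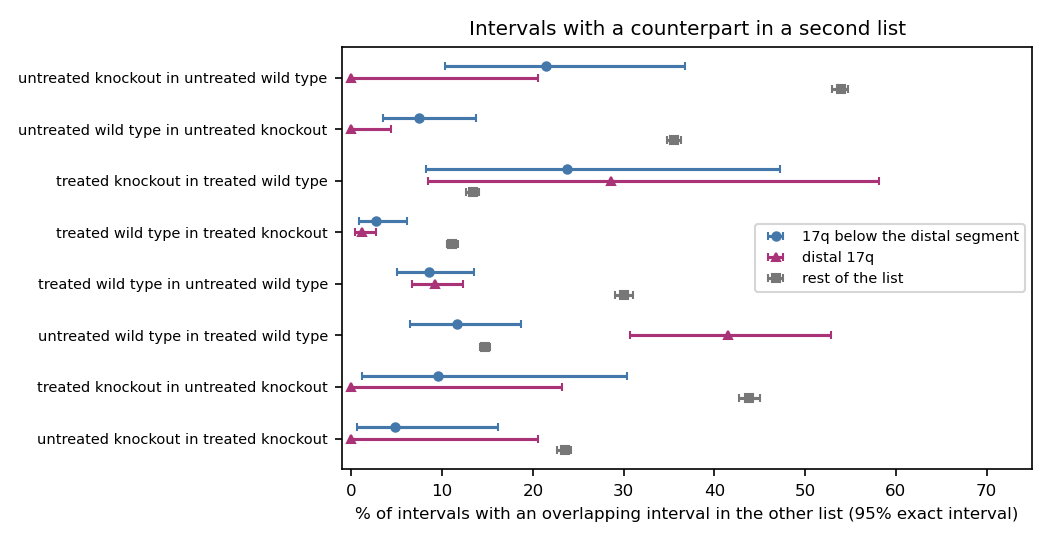
Percentage of the intervals of one list that overlap an interval of a second list, for proximal 17q, distal 17q and the rest of the list, with exact 95% intervals. Distal 17q reaches 41.5% for untreated in treated wild type, above the rest of the list, and 0 for the untreated genotypes and for the knockout lists.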

How the data were processed

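CUT&RUN libraries of 16 samples in 8 groups of 2 replicates were made from 2.5 ng of chromatin, per the labels' protocols. The 8 TOP2B samples are covered by 4 lists and the 8 H2A samples were not analysed here. The submitters' processing notes name SEACR, Bowtie2 2.4.2, bedtools 2.30, deepTools 3.5.1, SAMtools 1.16, FastQC and Trimmomatic, with GRCh37 as the build. The sources used here do not state how SEACR was run, how coverage was scaled or how duplicates were treated. The list names call their content intersected peaks; the lists have no header, and their columns fit a SEACR layout. The deposited score is the area of the called peak and the deposited signal is its maximum coverage. Intervals that share area, maximum and region of the maximum were taken as 1 called peak.

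Shares carry Clopper-Pearson intervals and ratios of shares exact conditional intervals (Python 3.11.15, scipy 1.17.1). Windows of 1 Mb with at least 10 intervals in either list were compared, with 0.5 added to each count and a limit of 2-fold. The windows named were up to 3 with the highest and 3 with the lowest ratio past that limit, and the intervals named were the highest of each list and segment, those in all lists and those nearest to ERBB2; of the 3 highest per list and segment, the leading ones are given. The functions were tested on simulated data. The region, its segments and the rules were chosen with earlier results of these data known. No sequence is shown, because a genome of the build of the lists was not used here. Coordinates count from 1.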

Additional observations from a re-analysis of the deposited data

Results flagged for a closer look

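Proximal 17q was singled out because its share moved in opposite directions with osimertinib in the 2 genotypes. Treated against untreated, the ratio of shares was 2.45 in wild type and 0.834 in the knockout. The difference was not tested, each side rests on 1 list per condition, and the knockout interval (0.469 to 1.44) includes equality. With each called peak counted as 1 the knockout ratio was 1.02, so under this setting the directions were not opposite. With the untreated knockout list cut to its highest peaks, the ratio was 1.08. That cut kept all peaks tied at its limit and did not bring the lists to equal length, so no direction was read from it.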

How the results depend on the processing

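Of 91 values recomputed under other settings, 67 stayed within the counting interval of the value given or within 1.5 times a count. A reversal was counted only for ratios at least 2-fold from equality, and there was 1. Smaller ratios that crossed equality within their interval, such as the proximal knockout ratio under drug, are among the 67. For values outside these limits the cause was not tested. Counting intervals at or above the list median turned the proximal ratio of untreated knockout to wild type from 0.425 to 2.05, moved the treated genotypes' distal ratio to 0.0194, and gave 9.38 proximal and 28.4 distal for treated against untreated wild type. That comparison also gave 5.41 and 16.2 with the longer list cut to its highest peaks, ties kept. By summed length it gave 3.2 and 11.1, and by called peaks 5.96 distal. The cut at the list median kept unlike shares of the lists. Windows past 2-fold numbered 1 of 1 (14.7% over the genome), with at least 20 intervals, and 13 of 15 (29.7%), with at least 5, for the untreated genotypes. With at least 5 intervals they were 28 of 30 (79.2%) for the treated genotypes and 28 of 32 (71.1%) for treated against untreated wild type, and in 5 Mb windows 8 of 9 (75.2%) and 7 of 9 (64.2%). Of these 9, 1 crosses the lower limit of the arm and also counts intervals of 17p. Its part on 17q held 1 interval per list. No 1 Mb window of 17q held more than 4 intervals of a knockout list, so those compared between genotypes entered through wild type alone. With an overlap of 50% of both intervals, counterpart shares on 17q fell to 5.17% of untreated knockout and 1.48% of untreated wild-type intervals between genotypes (15.3% and 12.5% of the whole lists), and to 1.77% of treated and 5.42% of untreated intervals between the wild-type lists (4.63% and 2.93%). At or above the list median the last 2 were 11.6% and 32%. Over the 4 lists, 4, 12 and 24 intervals lay within 100, 500 and 1000 kb of ERBB2. Leaving out the fullest window of a segment, or the arm below 26 Mb, moved no ratio beyond its interval. No paired analysis was possible because each condition has 1 list made from both replicates, which also leaves no replicate to omit.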
